A study of Mus musculus with 6 samples.

Results

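The genes of 3 enzymes that add or remove ubiquitin on histone H2B were examined, Rnf20, Rnf40 and Usp22. They were taken as fixed intervals on mouse build mm9: chr4:49645000-49670000 for Rnf20, chr7:134732000-134747000 for Rnf40 and chr11:60965000-60989500 for Usp22. They are 3 loci in a genome of 250807 windows of 10 kb that held reads. The measurement was ubiquitylated H2B (H2Bub) on the chromatin of these genes, by chromatin immunoprecipitation and sequencing after micrococcal nuclease digestion. It does not give the amount of their RNA or protein. The cells were C2C12, an established mouse myoblast line that fuses into multinucleated myotubes. Growing myoblasts (MB, 3 libraries) were kept in 10% fetal bovine serum and collected at about 40% confluency. Myotubes (MT, 3 libraries) were collected after 96 h in 2% horse serum, begun when the cultures had become confluent. Their medium was changed on day 2. The labels name no introduced gene, deletion or drug in either group. Markers of myoblasts and myotubes were not measured here, so the stages rest on the labels.

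H2B is monoubiquitylated mainly over transcribed gene bodies, while RNA polymerase II elongates. The RING-type ligases RNF20 and RNF40 act as a heterodimer and hand ubiquitin from an E2 enzyme to a lysine near the C-terminus of H2B. USP22 is the catalytic subunit of the deubiquitylase module of SAGA, a transcriptional coactivator complex, and removes this ubiquitin. The question asked here was how the mark itself was distributed over the genes of its own ligase and deubiquitylase before and after differentiation.

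In RefSeq (GRCm38.p6, used for names and order, not for positions in the read files) Rnf40 starts beside Ccdc189, which is transcribed the other way. Phkg2 lies next on that side, and 1700120K04Rik and Zfp629 lie beyond the 3′ end. Usp22 overlaps Tnfrsf13b at its 3′ end, and Rnf20 lies between Gm45952 and Grin3a. H2Bub reads carry no gene strand, so the mark of such close neighbours cannot be told apart at their borders. The bases between the spans of Ccdc189 and Rnf40 are shown because they are that border, from which the values of Rnf40 and of its 5′ flank are read in opposite directions. They are at chr7:127588667-127588697 of GRCm38.p6, plus strand, from RefSeq, and capitals mark CCAAT.
Rnf40: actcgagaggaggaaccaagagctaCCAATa
This stretch of 31 bases holds 1 match to CCAAT on the plus strand and 0 on the minus strand. CCAAT on either strand occurs in 4.86% of 32851 RefSeq promoters over the same length before the start. CGGAAG, TGACGTCA and GGGCGG, searched on both strands, had no match, and occur in 3.48%, 0.347% and 10.1%. A match is a description of letters and says nothing of binding.

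The libraries held between 8759266 and 15891204 reads on chromosomes 1 to 19 and X. Levels below are RPKM, reads per kb of interval per 1000000 of these reads. Under this scaling the median 10 kb window was higher in MT by 0.78 on the log2 scale. Under background scaling, which equalises most windows by trimmed means, the median was 0.09. Fold changes come from limma voom and are MT over MB. They are given with total reads, with the background-scaled value beside each gene and flank.

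All 3 genes had a lower density of H2Bub reads in myotubes than in myoblasts. Usp22 had the highest level in myoblasts and the largest fall, to 0.334 of the myoblast level by the ratio of means. Rnf20 fell to 0.488 and Rnf40 to 0.536 of it. No myotube library reached the lowest myoblast library at any of the 3 genes. Less of the mark in every cell and fewer cells with the mark cannot be told apart in such bulk samples. Nor can weaker enrichment by the immunoprecipitation in the MT libraries, as no library of input chromatin is among the samples.

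**Figure D1:**
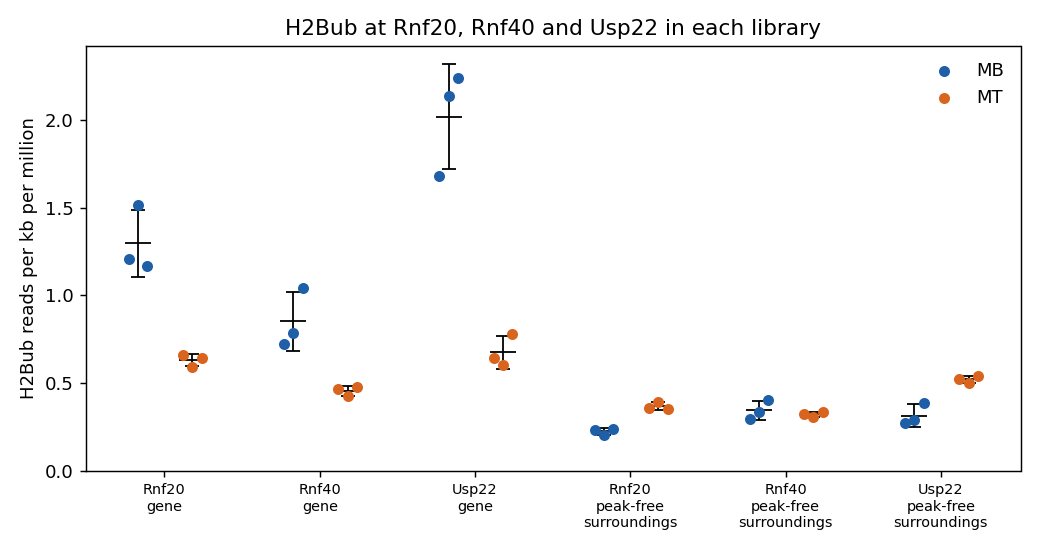
H2Bub in each library (RPKM, linear axis from 0) over the 3 gene intervals and over the 1 kb bins without any peak within 250 kb of each gene; points are libraries, black bars the mean and SD of 3. MB points lie above all MT points at each gene, from 0.725 upward at Rnf40 and from 1.68 upward at Usp22, whereas the peak-free surroundings are lower in MB than in MT at Rnf20 and Usp22.

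Rnf20, the first ligase subunit, had H2Bub levels of 1.21, 1.52 and 1.17 RPKM in MB replicates 1 to 3 and 0.662, 0.593 and 0.641 in the MT replicates. The means were 1.30 ± 0.192 and 0.632 ± 0.0355 (SD, n = 3). The myotube values were close together and all lay below the lowest myoblast value. The log2 fold change was -1.04 (SE 0.27, limma voom adjusted p = 0.000996), and -1.76 (SE 0.35) with background scaling. These values rest on 1141 MB and 514 MT reads.

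Usp22, the deubiquitylase, had 1.68, 2.14 and 2.24 RPKM in MB and 0.643, 0.601 and 0.779 in MT. The means were 2.02 ± 0.298 and 0.674 ± 0.093 (SD, n = 3), from 1803 and 550 reads. The log2 fold change was -1.57 (SE 0.30, limma voom adjusted p = 4.676e-05), and -2.29 (SE 0.39) with background scaling. Every myoblast library lay far above the highest myotube library, MT replicate 3.

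Rnf40, the partner ligase subunit, had 0.725, 0.788 and 1.04 RPKM in MB and 0.464, 0.426 and 0.479 in MT. The means were 0.851 ± 0.167 and 0.456 ± 0.0277 (SD, n = 3), from 473 and 224 reads. The log2 fold change was -0.85 (SE 0.21, limma voom adjusted p = 0.000625), and -1.56 (SE 0.24) with background scaling. MB replicate 3 was the highest of the myoblast libraries here, whereas MB replicate 2 was highest at Rnf20.

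These falls were common for loci marked in myoblasts. Of all 233813 windows of 10 kb tested, 13.1% were lower in MT and 70.9% higher. Among the windows with an MB peak, 85.7% were lower and 0.339% higher, and their median was -1.13 (log2). With background scaling 18.8% of all windows were lower and 2.22% higher. Of the 8 windows that touch the 3 genes, 7 were lower and 0 higher, beside the 85.7% lower among windows with an MB peak. The MB peaks were called on these libraries, so a lower MT value was partly built into that class. The count is therefore a description. The window at chr11:60980001-60990000, which holds the 5′ side of Usp22, had the lowest value of the 8, -2.24 (limma voom adjusted p = 1.354e-08). The window at chr11:60960001-60970000, over the 3′ end of Usp22 and the sequence beyond, was not called, at 0.29 (limma voom adjusted p = 0.197), and it held no peak of either list. The windows over Rnf20 had -1.03, -1.07 and -0.69, and those over Rnf40 had -0.81 and -0.65.

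The order of the genes was clearer in myoblasts than in myotubes. In myoblasts Usp22 was above Rnf20 and Rnf20 above Rnf40, with no overlap between the libraries of neighbouring genes. In myotubes the Usp22 and Rnf20 values overlapped, and Rnf40 lay below both. This myotube order did not hold once the peak-free density was subtracted. Rnf40 then had 0.141, 0.122 and 0.144 RPKM in MT and Usp22 0.120, 0.0992 and 0.237, while Rnf20 had 0.303, 0.199 and 0.289. Within each library, Rnf40 had 0.422 ± 0.0486 of the Usp22 level in MB and 0.682 ± 0.058 in MT (SD, n = 3). Rnf20 had 0.65 ± 0.112 and 0.947 ± 0.109 of the Usp22 level. Both ratios were higher in every MT library than in every MB library. For each, the exact two-sided permutation test gave p = 0.1, the smallest that 3 against 3 libraries allow, and 0.15 after Benjamini-Hochberg adjustment over the 3 pairs. Rnf20 over Rnf40 was 1.57 ± 0.411 in MB and 1.39 ± 0.0443 in MT, with overlapping libraries (exact permutation test, adjusted p = 0.7). The larger fall at Usp22 therefore held in all libraries but could not pass the threshold with this number of them.

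Scaling between libraries can be avoided by dividing each gene by its own surroundings within a library. This does not remove a difference in enrichment between libraries. The surroundings were 1 kb bins without a peak of either list within 250 kb, 437 bins for Rnf20, 406 for Rnf40 and 462 for Usp22. Rnf20 stood at 5.18, 7.54 and 4.93 times its surroundings in the MB libraries and 1.84, 1.51 and 1.82 times in the MT libraries. Usp22 stood at 6.21, 7.45 and 5.79 times its own in MB and 1.23, 1.2 and 1.44 times in MT. In myotubes Usp22 was thus closer to its surroundings but above them in every library. Inside its MB peaks it stood at 1.73, 1.43 and 1.89 times them in MT, and outside these peaks at 0.894, 1.04 and 1.13 times. Rnf40 stood at 2.47, 2.34 and 2.60 times its own in MB and 1.44, 1.40 and 1.43 times in MT. Its excess was the smallest of the 3 genes in myoblasts, and again the groups did not overlap. Each of the 3 differences had p = 0.1 (exact two-sided permutation test, n = 3), the smallest possible.

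The surroundings themselves differed between the loci. At Rnf20 the peak-free bins had 0.224 ± 0.0194 RPKM in MB and 0.368 ± 0.0223 in MT (SD, n = 3), and at Usp22 0.315 ± 0.063 and 0.522 ± 0.0201. At Rnf40 they had 0.344 ± 0.0536 and 0.321 ± 0.0162, with overlapping libraries, so no rise was seen there. Background reads and broad low H2Bub in these bins cannot be told apart.

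H2Bub in myoblasts was concentrated in the 5′ part of Rnf20 and Usp22 and was more even over Rnf40. The 5′ side was taken from the strand of each gene. Rnf20 and Rnf40 are on the plus strand in RefSeq, and Usp22 is known to be transcribed from the minus strand. Each interval was cut at its midpoint. In MB the 5′ part of Rnf20 had 1.98 ± 0.0789 times the density of the 3′ part, and 1.2 ± 0.13 times in MT (SD, n = 3). At Usp22 this ratio was 3.34, 3.36 and 2.23 in the MB libraries and 1.30, 0.721 and 1.08 in the MT libraries. At both genes the groups did not overlap (exact two-sided permutation test, p = 0.1, the smallest possible). At Rnf40 the ratio was 1.21 ± 0.0346 in MB and 1.04 ± 0.138 in MT, and the groups overlapped (exact permutation test, p = 0.2).

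**Figure D2:**
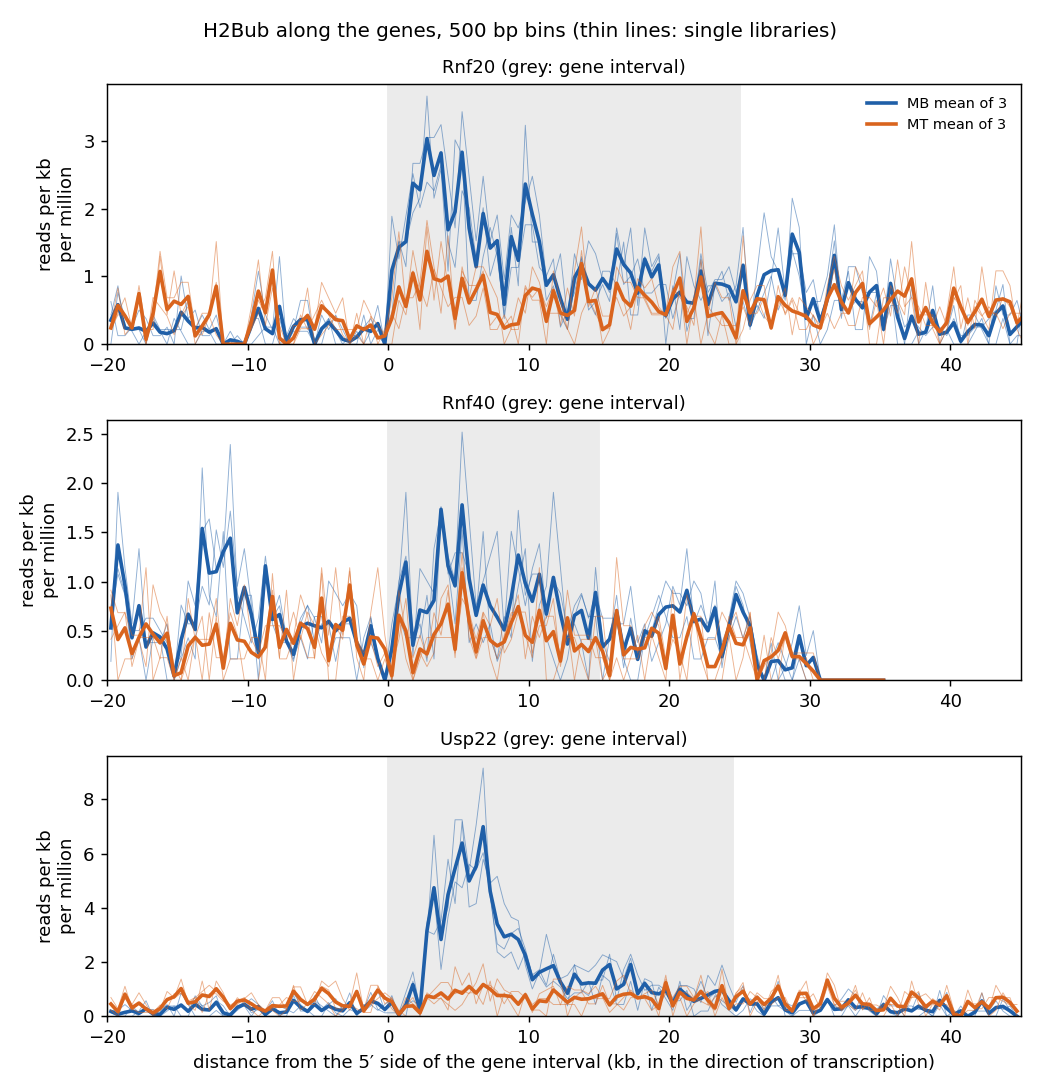
H2Bub in bins of 500 bp (RPKM) along each gene interval (grey) and 20 kb on either side, against the distance in kb from the 5′ side in the direction of transcription; thin lines are single libraries and thick lines the mean of 3. The MB signal of Usp22 starts about 2.6 kb inside the interval and runs highest over the first 10 kb, that of Rnf20 starts near the 5′ side, and MT lines stay low throughout.

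Each gene was also divided into 5 equal segments, numbered from the 5′ side. Segment 2 of Usp22 was at 14.3, 16.9 and 11.9 times its surroundings in MB and 1.87, 1.14 and 1.85 times in MT. This was the highest value of the 15 segments of the 3 genes in myoblasts, and its level was 5.21 times higher in MB, 4.43 ± 0.505 against 0.851 ± 0.24 RPKM (SD, n = 3). Segment 5 of Usp22, at the 3′ end, had 0.763 ± 0.34 and 0.697 ± 0.162 RPKM, with overlapping libraries. Relative to its surroundings it was at 2.44, 1.70 and 2.96 in MB and 0.981, 1.63 and 1.41 in MT, without overlap. On both scales the difference was smaller than in segment 2. Rnf20 declined from 9.34 ± 1.6 times its surroundings in segment 1 to 3.44 ± 0.957 in segment 5 in MB, and ranged from 1.45 to 2.22 in MT. At Rnf40 the highest segment in both groups was segment 2, with 3.62 ± 0.279 in MB and 1.98 ± 0.12 in MT.

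**Figure D3:**
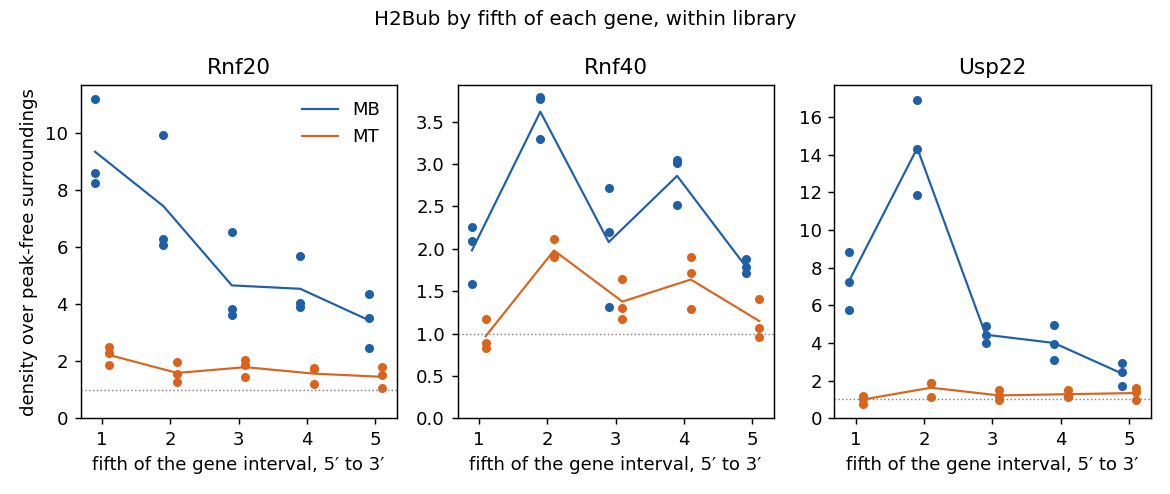
Density in 5 equal segments of each gene, 5′ to 3′, divided by the peak-free surroundings in the same library (no unit; dotted line at 1); points are libraries and lines join the means of 3 (MB and MT), with a separate scale for each gene. The MB values peak in segment 1 at Rnf20 and segment 2 at Usp22, while all MT means lie between 0.967 and 2.22.

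The authors' peak lists, 1 per group, differed in the same way at the 3 genes. The MB list had 14 peaks over Rnf20, covering 25.4% of the interval, 14 over Usp22, covering 40.2%, and 4 over Rnf40, covering 9.93%. The MT list had 1 peak in Rnf20 and none in Rnf40 or Usp22. MB peaks began 1.12 kb from the 5′ side of the Rnf20 interval, 3.95 kb at Rnf40 and 2.60 kb at Usp22. The intervals are rounded and are slightly longer than the genes in RefSeq, so these offsets are approximate. Joined across gaps of up to 3 kb, the peaks of Usp22 formed a single stretch of 14.7 kb (chr11:60972227-60986903). Those of Rnf20 formed stretches of 9.44 kb (chr4:49646120-49655554) and 0.579 kb, and those of Rnf40 stretches of 1.84 kb and 0.303 kb.

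The only MT peak, at chr4:49647480-49647768 in the 5′ part of Rnf20, overlapped the widest MB peak of that gene. Its 289 bp held 14, 9 and 10 reads in the MB libraries and 5, 5 and 2 in the MT libraries. Per length and depth this was 3.45 ± 1.58 RPKM in MB and 1.44 ± 0.836 in MT (SD, n = 3), and every MT library lay below every MB library. The MT list thus holds a peak at a place where H2Bub was lower in myotubes, on few reads.

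Inside and outside the MB peaks alike, every MT library lay below every MB library at all 3 genes. Inside the MB peaks of Usp22 the level went from 3.73 ± 0.483 to 0.882 ± 0.157 RPKM, and outside them within the gene from 0.871 ± 0.213 to 0.535 ± 0.0734 (SD, n = 3). The values for Rnf20 were 2.39 ± 0.333 to 0.85 ± 0.0665 inside and 0.924 ± 0.164 to 0.558 ± 0.0467 outside. At Rnf40 they were 1.72 ± 0.491 to 0.794 ± 0.0687 inside and 0.756 ± 0.15 to 0.419 ± 0.0383 outside. The peaks were called on these libraries, so these levels are a description.

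Region by region, 8 of the 32 peak regions of the 3 genes had enough reads to test, 3 in Rnf20 and 5 in Usp22. All 8 were lower in MT, as were 98.7% of all regions tested, with 0.0188% higher. Nearly all regions are MB peaks called on these libraries, so a lower MT value was built into the choice, and nothing is read from the count or from the fold changes that follow. The regions with most reads were chr11:60981221-60983649 in Usp22, with 100, 142 and 190 reads in MB and 19, 16 and 46 in MT (log2 fold change -2.36), and chr11:60983701-60984551 beside it (-2.55). In Rnf20 they were chr4:49647480-49648990 (-1.38) and chr4:49646560-49647334 (-1.35). None of the 4 regions of Rnf40 passed the floor of 10 reads at the median library size in 3 libraries. With no floor 23 of the 32 were lower and 0 higher, beside 75.7% lower and 2.86% higher of all regions.

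At a scale of 1 kb, 24 of 68 bins passed the same floor, 12 in Rnf20, 12 in Usp22 and 0 in Rnf40. Of these 21 were lower in MT and 0 higher, beside 89.4% lower and 0.811% higher among all bins tested. Bins could pass through the myoblast libraries alone, and those named were picked for their myoblast level, so counts and values are descriptions with no test. The bin with most myoblast signal in Usp22, chr11:60984001-60985000, had 45, 76 and 90 reads in MB and 13, 3 and 13 in MT (log2 fold change -2.82). In Rnf20 the bin at chr4:49647001-49648000 had 27, 30 and 35 reads in MB and 13, 9 and 10 in MT (-1.46). In Rnf40 the bin at chr7:134737001-134738000 had 11, 10 and 33 reads in MB and 8, 8 and 11 in MT. The Rnf40 bin rested mostly on MB replicate 3, the deepest library, and did not pass the floor. At most 4.5% of the positions on both strands of these bins held a read in any library, so these bins were far from the ceiling set by listing each position and strand at most 1 time.

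At all 3 genes the MB peaks over the gene ended within the interval on both sides. The 20 kb flanks held no MB peak on either side of Usp22, before Rnf20 or after Rnf40. Both Usp22 flanks were low in MB, with 0.267 ± 0.0115 before the 5′ side and 0.309 ± 0.101 after the 3′ side, against 0.552 ± 0.0457 and 0.542 ± 0.0208 in MT (RPKM, SD, n = 3). They were called higher with total reads (log2 fold change 1.05 and 0.86, limma voom adjusted p = 3.855e-05 and 0.000622) and not with background scaling (0.35 and 0.19, limma voom adjusted p = 0.322 and 0.645). The flank before Rnf20 went the same way, 0.76 (limma voom adjusted p = 0.00169) with total reads and 0.05 (adjusted p = 0.92) with background scaling. After Rnf20 the signal ran on past the 3′ side, at 2.61, 2.72 and 2.25 times the surroundings in MB, with 0.563 ± 0.0404 in MB and 0.544 ± 0.035 in MT (RPKM, SD, n = 3). That flank held 1 MB peak and was not called with total reads (-0.05, limma voom adjusted p = 0.805), but was lower with background scaling (-0.77, limma voom adjusted p = 0.0188).

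The 20 kb flank before Rnf40 had H2Bub in myoblasts, at 1.74, 1.92 and 1.85 times the peak-free surroundings. It was uneven along the flank. The 500 bp bin nearest the gene had 0 RPKM in every MB library. The bin at -13250 bp from the 5′ side had 2.15, 0.953 and 1.51, and that at -11250 bp 0.215, 1.72 and 2.39. This signal thus did not adjoin Rnf40. The flank after the 3′ side of Rnf40 stood at 0.843, 1.12 and 1.09 times the surroundings and held 0 MB peaks. Before the 5′ side, MB had 0.633 ± 0.115 and MT 0.428 ± 0.0675 RPKM, with 2 MB peaks (log2 fold change -0.54, SE 0.21, limma voom adjusted p = 0.0197). This call was lost without MB replicate 2 (adjusted p = 0.109) or without MB replicate 3 (adjusted p = 0.0782). After the 3′ side the values were 0.354 ± 0.0968 and 0.253 ± 0.0757 (-0.44, limma voom adjusted p = 0.0629). That flank became a call without MB replicate 1 (-0.67, limma voom adjusted p = 0.0161) or MT replicate 3 (-0.66, adjusted p = 0.0189), and with background scaling (-1.17, adjusted p = 6.63e-05). With background scaling the 5′ flank had -1.25 (limma voom adjusted p = 0.000101). In the 3′ flank 5 kb of the 20 kb held 0 reads in all 6 libraries, and these bases count in both means. They also lower the ratios of this flank to the surroundings, whose bins all held reads. Where the signal of Rnf40 ended on the 3′ side therefore cannot be read from these ratios, nor can the contrast with the 5′ flank.

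**Figure D4:**
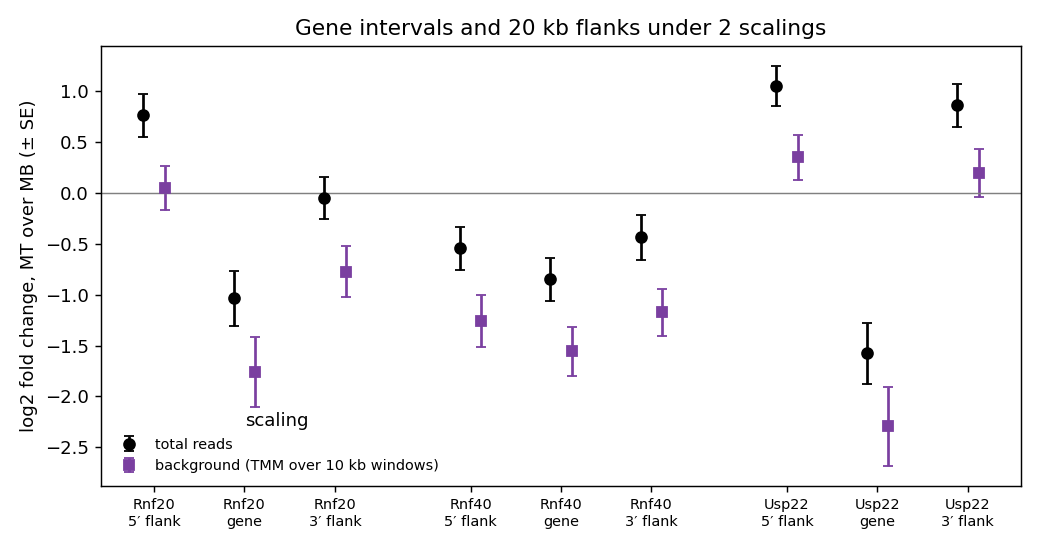
Log2 fold change of MT over MB (limma voom, bars are SE) for each gene interval and its 20 kb flanks, scaled by total reads (black circles) or background (purple squares). The genes lie below 0 under both scalings, from -0.85 to -2.29, while the Usp22 flanks and the 5′ flank of Rnf20 lie above 0 with total reads and between 0.05 and 0.35 with background scaling.

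Set against the long myoblast domains, the longest peak stretches of Usp22 and Rnf20 lay within the middle 50% of changes and that of Rnf40 outside it. The 5326 stretches of joined MB peaks of at least 10 kb had a median of 2.01 RPKM in MB and 0.629 in MT. Their log2 difference had a median of -1.73, with that middle range from -2.07 to -1.37. The Usp22 stretch of 14.7 kb, itself among them, had -1.93, and 34.5% of the domains fell further. The Rnf20 stretch of 9.44 kb had -1.41, and 72.0% of the domains fell further. The first Rnf40 stretch, of 1.84 kb, had -0.93, and 95.4% fell further, though it is much shorter than any domain. The short second stretches of Rnf20 and Rnf40 had -0.77 and -0.63, and 98.1% and 99.3% of the domains fell further. Over the whole gene intervals the values were -1.02 at Rnf20, -0.87 at Rnf40 and -1.57 at Usp22. For these intervals 92.8%, 96.8% and 61.3% of the domains fell further. These ranks are descriptions without a test.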

How the data were processed

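H2Bub was mapped in 3 MB and 3 MT libraries of C2C12. The authors deposited read positions with their strand, and 1 peak list per group with no scores, on mm9 per the submitters' processing notes. The sources used here do not name the aligner, read length, peak caller or threshold. The files held 0 repeated lines, so a position and strand is listed at most 1 time per library. The labels do not say that replicates were separate cultures, so the p-values reflect how far these libraries scatter, which may be technical. The labels give each library its own antibody lot number, in running order over the 6 libraries; whether these were separate lots is unclear.

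Reads were counted here per gene interval, flank of 20 kb, window of 10 kb, bin of 1 kb and merged peak region. Features needed 10 reads, scaled to the median library, in 3 libraries (2 with a library left out) and 15 in total. Groups were compared with limma 3.58.1 (voom, two-sided, R 4.3.3). The 3 intervals and 6 flanks were fitted with all windows, and p-values were adjusted by Benjamini-Hochberg over each table at a threshold of 0.05. The files give read positions and not counts per feature, so the counts were made here. No negative binomial model was fitted to them. Tested on 233819 simulated windows, the fit recovered 82% of those changed 0.25-fold, 14% at 0.5-fold, 44% at 2-fold and 100% at 4-fold. Few of the simulated windows were changed and their scatter was assumed, whereas most windows were called in the data. These shares therefore do not give the power of the fit in the data. A window that was not called is still not shown to be unchanged. Ratios within a library were compared with exact permutation tests. Python 3.11.15, NumPy 2.4.6, pandas 2.3.3 and matplotlib 3.10.9 did the counting and plots.

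The members and lists were chosen with earlier results of these data known. Named by rule were the windows over the genes, the 2 peak regions with most reads and the highest 1 kb bin per gene, every MT peak, and the 2 domains most like each gene. Intervals could not be checked against an mm9 annotation. Their lengths of 25001, 15001 and 24501 bp compare with 24883, 14908 and 23279 bp for Rnf20, Rnf40 and Usp22 in RefSeq (GRCm38.p6), where 3 of 3 symbols matched. Other genes of the pathway were not analysed here.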

Additional observations from a re-analysis of the deposited data

How the results depend on the processing

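Each gene interval stayed lower and past the threshold in its 18 alternative fits, with log2 fold changes of -1.82 to -0.91 at Rnf20 (largest limma adjusted p 0.0389, without MB replicate 2), -1.60 to -0.73 at Rnf40 and -2.38 to -1.40 at Usp22. With the replicate number as a block they were -1.03, -0.83 and -1.57 (limma voom adjusted p 0.0116, 0.00111 and 0.00116), and the 3′ flank of Rnf40 became a call (-0.49, adjusted p 0.0304). Same-numbered libraries deviated with correlations of 0.000452, -0.169 and 0.15 over windows, so no pairing by number was assumed. Among alternatives added after seeing the data, background scaling with the block, or with an MT library left out, kept each gene lower. Background scaling cut the 165795 higher windows to 5182. Relative to its surroundings, the log2 difference of MT over MB was -1.75 at Rnf20, -0.79 at Rnf40 and -2.33 at Usp22. Dividing by the flanks gave -1.24, -0.36 and -2.52. Peak-free bins within 1000 kb gave -1.09 at Rnf40 and -1.88 at Usp22, and those within 100 kb gave -0.61 at Rnf40. Subtracting the peak-free density first moved Rnf20 over Usp22 from 0.55 to 1.55 and Rnf40 over Usp22 from 0.70 to 1.69 (log2). The cause of these shifts was not tested. Without the floor 23 peak regions were lower in place of 8, with more regions tested. Without MB replicate 3, the groups no longer overlapped for Rnf20 over Rnf40 (log2 -0.37). Depth limits the peak regions and 1 kb bins of Rnf40, of which 0 passed the floor.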

Other observations

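By Euclidean distance over the log2 levels of the 6 libraries, the domains with the pattern most like Usp22 were chr16:18812760-18825212 and chr13:73902439-73926950, with means of 1.98 and 2.03 RPKM in MB and 0.687 and 0.676 in MT. Those most like Rnf20 were chr4:87555628-87570899 and chr14:48745658-48765341, with 1.33 and 1.24 in MB and 0.632 and 0.625 in MT. Those most like Rnf40 were chr7:148799472-148814457 and chr12:92945140-92956725, with 1.01 and 0.985 in MB and 0.427 and 0.49 in MT. The distances were 0.14 to 0.2 for Usp22 and Rnf20 and 0.486 to 0.521 for Rnf40, out of 5325 domains. So the nearest domains lay farther from Rnf40 than from the other two. The domains were not matched to genes.

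Plus-strand and minus-strand reads were less balanced at Rnf20 in MT replicate 1 than in the other libraries. There the ratio of plus to minus reads was 1.5, against 0.851 and 0.933 in the other MT libraries and 0.931 to 0.970 in MB. The cause was not tested.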
